A study of Mus musculus with 8 samples.

Results

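The dexamethasone response described here was measured in the plus-tetracycline arm of a study of mouse 3134 mammary cells, a line derived from C127 cells, which came from a mammary tumor of an RIII mouse. The arm was chosen by the sample titles and held 4 of the study's 8 arrays: 2 arrays of untreated cells at 0 h and 2 arrays of cells given 100 nM dexamethasone for 4 h. All cells of the study, controls included, stably carried the Tet-Off regulator tTA and A-fos, a dominant negative partner that traps Jun proteins away from DNA. All were grown in serum stripped of steroids with charcoal for the 48 h that preceded the hormone. The other 4 arrays had the same times and dose and are titled as having no tetracycline.

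The titles and the tetracycline characteristic place these 4 arrays with tetracycline (1 ug per ml), which shuts off a Tet-Off transgene. The treatment protocol of the same samples states the opposite, as it does for every sample of the study. The arm is therefore named by its titles, and whether these cells made A-fos cannot be told from the labels. The extraction text also speaks of AtT-20 cells, a pituitary line. The labels name 1 cell line and do not say whether the 2 arrays of a group came from separate cultures, so each p-value reflects the spread between the arrays at hand, and that spread may be technical.

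Dexamethasone is a synthetic ligand of the glucocorticoid receptor. The bound receptor leaves its chaperones, enters the nucleus and binds DNA, often at an imperfect palindrome of paired half-sites, where it switches on genes that restrain inflammation, MAP kinase and insulin signalling. It lowers many other genes that depend on AP-1 (dimers of Fos and Jun proteins) or NF-kB, commonly without binding a palindrome of its own. In mammary epithelium glucocorticoids are known for supporting survival and, with prolactin, milk protein synthesis.

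Levels are the authors' log2 values, with 1 probe set standing for each of 19938 genes, and a difference of 1 on this scale is a doubling. Medians over genes lay between 5.591 and 5.688 on the 8 arrays, the lowest on replicate 1 of the untreated plus-tetracycline cells. The 2 untreated arrays of this arm correlated at 0.9932 across genes and differed more than 2-fold at 24 genes, against 11 genes in the 4 h pair and 4 to 7 genes in the other pairs. Results that rest on the lowest array are given without it where a call was lost. The 14 mesenchymal markers measured had a mean signal of 8.40 to 8.54 on the arm's arrays, with single genes at 5.66 to 12.67 at 0 h. The means were 5.16 to 5.30 for 13 luminal markers, 5.12 to 5.35 for 11 basal markers, 4.29 to 4.50 for 8 milk protein genes and 4.51 to 4.71 for 8 corticotroph markers. Single genes at 0 h reached 8.03 for luminal, 8.12 for basal, 7.37 for milk protein and 6.03 for corticotroph markers. Signals of different probe sets cannot be ranked as expression, so these values do not settle the cell type. Leukocyte, endothelial and adipocyte marker means were 4.41 to 5.07, with single genes reaching 8.12, 7.04 and 5.29 at 0 h, in that order. The brightest was the leukocyte marker Lyz2 (8.12), whose 0 h mean was 5.68 in the no-tetracycline arm. In the response, limma called no member of the luminal, basal, milk protein, adipocyte, leukocyte, endothelial or corticotroph lists at an adjusted p under 0.05. At an unadjusted p under 0.05, which 1990 of all genes (9.98%) reached, there was 1 milk protein gene, 2 adipocyte markers and 0 of the other 5 lists.

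After 4 h of hormone 164 genes were higher (0.823% of genes tested) and 56 were lower (0.281%), which made 220 called genes in all (1.1%). The threshold for a call in limma was an adjusted p under 0.05. The called rises were the larger changes: 61 were at least 2-fold, 16 at least 4-fold and 5 at least 8-fold, against 8 falls of at least 2-fold and none of 4-fold. The median called rise was 0.84 (from 0.52 to 4.22) and the median called fall was -0.73 (from -0.52 to -1.57). The median over all genes was -0.01, with 51.6% of genes below 0. In all 220 called genes both treated arrays lay on the same side of both untreated arrays. That happened upward in 3362 of all genes (16.9%) and downward in 3842 (19.3%), so separation of 2 arrays from 2 others was common. In bulk RNA, fewer cells of a type and less RNA per cell cannot be told apart. An exact permutation test of 2 arrays against 2 cannot give a p below 0.333 (2-sided).

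Called genes started from higher signals than most. The median 0 h signal was 7.32 for the called rises and 7.58 for the called falls, against 5.64 for all genes. A 0 h signal under 5 was found in 17 called rises (10.4%) and 2 called falls (3.6%), against 39.0% of all genes. RMA compresses small folds of dim genes, and the part of this in the difference was not tested. Leaving out each of the arm's 4 arrays in turn, 68 to 104 genes were called higher and 12 to 31 lower. Without replicate 2 of the 4 h cells the counts were 68 and 12, and without the low untreated replicate 1 they were 94 and 14. A total of 72 genes, 63 higher and 9 lower, were called in every one of these 4 fits. The 20 largest rises were all among them, and 9 of the 20 largest falls.

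**Figure D1:**
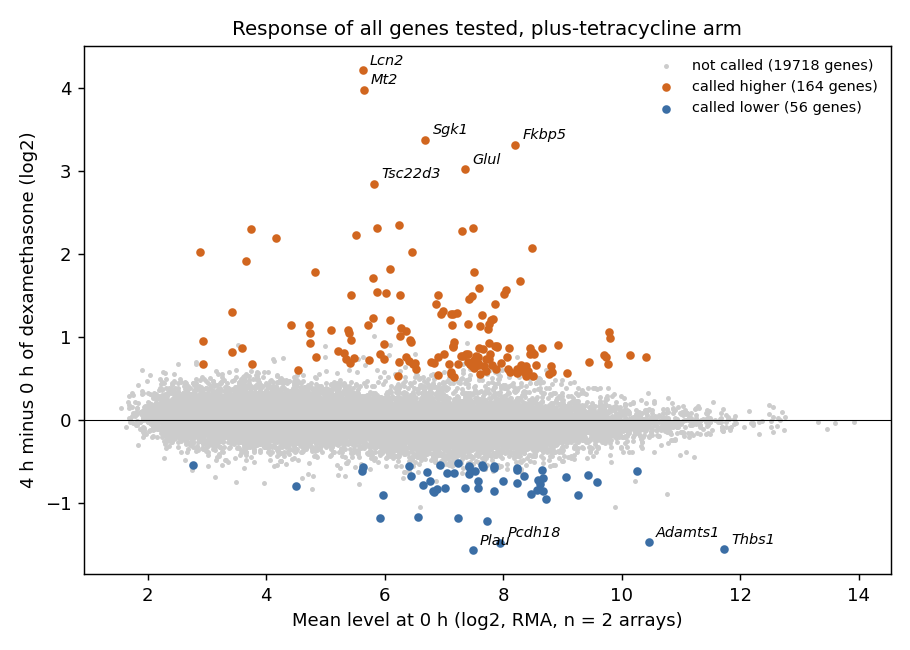
Each point is a gene, with its mean level at 0 h on the x axis (log2, 2 arrays) and its change after 4 h of dexamethasone on the y axis (log2). The 164 genes called higher (orange) reach 4.22, the 56 called lower (blue) reach -1.57, and few called genes start at the dim end.

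Among the receptor's own machinery a single gene was called. Of 19 measured genes of the receptor, its chaperones and its cofactors, only Fkbp5 was called, and the median change was 0.00. The share called over all genes was 1.1%. Fkbp5 encodes a co-chaperone that lowers the receptor's affinity for hormone. Its level was 8.33 and 8.06 on the untreated arrays and 11.47 and 11.56 after hormone, 9.99-fold higher (3.32 ± 0.12, SE, adjusted p = 2.02e-07). Nr3c1, the receptor itself, was 8.77 and 8.79 before and 8.33 and 8.26 after hormone. Both treated arrays were lower, but the difference of -0.48 ± 0.10 was not called (adjusted p = 0.0606). It was called with a trended, robust variance (0.00919) and after dropping the dimmest genes (0.0226).

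Genes that restrain signalling and inflammation had the most called members of any list. The lists were chosen with earlier results of these data known, so a ranking among them is not a test. Over all genes 0.823% were called higher. Of 19 members of the feedback and anti-inflammatory list, 9 rose and none fell, with a median change of 0.45 (range -0.36 to 3.38). Between 8 and 9 of them rose when any of the arm's arrays was left out. Sgk1 encodes a kinase that acts on ion channels and FoxO proteins downstream of PI3 kinase. Sgk1 went from 6.63 and 6.75 to 9.98 and 10.17, a 10.4-fold rise (3.38 ± 0.12, adjusted p = 2.02e-07). Tsc22d3, which encodes the anti-inflammatory protein GILZ, went from 5.68 and 5.97 to 8.45 and 8.90, a 7.2-fold rise (2.85 ± 0.18, adjusted p = 1.81e-05). In both genes every treated array was far above every untreated one.

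Errfi1, which encodes an inhibitor of the EGF receptor, was at 7.71 and 7.30 before and at 9.76 and 9.89 after hormone (2.32 ± 0.14, adjusted p = 1.31e-05). Ddit4, which encodes the mTORC1 inhibitor REDD1, was at 7.20 and 7.40 before and at 9.24 and 9.93 after (2.28 ± 0.21, adjusted p = 0.000285). Arrdc2, an arrestin-domain gene, was at 6.33 and 6.60 before and at 8.36 and 8.61 after (2.02 ± 0.13, adjusted p = 2.58e-05). In these 3 genes too the groups were well apart. The remaining called members were named after their values were seen: Dusp1, a MAP kinase phosphatase (1.51), Nfkbia, the NF-kB inhibitor (1.16), Zfp36, which destabilizes cytokine mRNAs (1.01), and Rgs2, a G-protein regulator (1.14). The Rgs2 call was lost without replicate 1 (adjusted p = 0.174) or 2 (0.0724) at 0 h or replicate 2 at 4 h (0.138). In the list of 16 SGK and ion transport genes, Sgk1 was joined by Nedd4l, a ubiquitin ligase for sodium channels (0.65 ± 0.13, adjusted p = 0.0343). Nedd4l was not called with only the arm's 4 arrays (adjusted p = 0.0852) or after median centring (0.061). The Nedd4l call was lost without replicate 2 at 0 h (0.148) or either replicate at 4 h (0.163 and 0.212).

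Of 19 transcription factor genes known to be hormone-induced, 6 rose and none fell, with a median of 0.26. The share called higher over all genes was 0.823%. Per1, a clock repressor, went from 5.97 and 6.21 to 7.88 and 7.93 (1.82 ± 0.13, adjusted p = 5.45e-05). Nfil3, a bZIP repressor, went from 6.53 and 5.99 to 7.69 and 7.84 (1.51 ± 0.18, adjusted p = 0.0016). Per1 and Nfil3 were also the only called genes among 17 circadian clock genes, whose median was 0.02. Foxo3, which drives growth arrest and catabolic genes, rose by 1.13 ± 0.11 (adjusted p = 0.000413) from 7.59 and 7.64 to 8.64 and 8.84. Foxo1, its relative, rose by 0.77 ± 0.13 (0.0191), and Cebpb by 0.93 ± 0.13 (0.00604). Klf15, named after its values were seen, rose by 0.69 ± 0.14 (0.0498). These last 3 calls were weak: without replicate 1 at 0 h the adjusted p was 0.153 for Foxo1, 0.0768 for Cebpb and 0.256 for Klf15, and without replicate 2 at 4 h it was 0.191, 0.0864 and 0.195. Without replicate 1 at 4 h the Foxo1 and Klf15 calls were also lost (0.0802 and 0.237). Between 3 and 7 members rose over the 4 fits that each left out an array.

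Mt1 and Mt2, which encode metallothioneins, small proteins that bind zinc and copper, were among the 20 largest rises. Mt2 went from 5.85 and 5.45 to 9.33 and 9.94, 15.8-fold (3.98 ± 0.22, adjusted p = 7.89e-06). Mt1 went from 8.29 and 8.67 to 10.33 and 10.76, 4.19-fold (2.07 ± 0.19, adjusted p = 0.000229). Mt1 and Mt2 are close in sequence, so a probe of either can read both. The other 2 metallothionein genes measured, Mt3 (0.09, adjusted p = 0.856) and Mt4 (0.40, 0.281), were not called and were named after their values were seen. With the zinc and iron transporter gene Slc39a14 (0.82 ± 0.10, adjusted p = 0.00242), 3 of 14 metal-handling genes rose and none fell, at a median of 0.08. That compares with 0.823% of all genes called higher.

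Acute-phase proteins are secreted in inflammation and injury, and glucocorticoids are known to raise some of them. Lcn2, which encodes the iron-siderophore carrier lipocalin 2, showed the largest change of any gene in the arm. Its level was 5.84 and 5.43 before and 9.83 and 9.88 after hormone, 18.6-fold higher (4.22 ± 0.15, adjusted p = 2.02e-07). Orm1 and Orm3, which encode orosomucoid carrier proteins, rose by 1.92 ± 0.16 (adjusted p = 0.000164) and 1.79 ± 0.16 (0.000182). Their probe sets may read each other, and Orm1 started at 3.60 and 3.74, near the dim end of the array. The other 14 of 17 measured acute-phase genes were not called, and the list's median was 0.30. By comparison, 0.823% of all genes were called higher.

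Metabolic genes responded at 3 of 24 members, all higher, against 0.823% of all genes called higher. The list's median was 0.01. Glul encodes glutamine synthetase. It went from 7.40 and 7.32 to 10.20 and 10.54, 8.08-fold (3.02 ± 0.13, adjusted p = 1.18e-06). Pdk4, whose kinase shuts pyruvate out of the mitochondrial oxidation pathway, went from 5.39 and 5.64 to 7.71 and 7.77 (2.23 ± 0.12, adjusted p = 4.95e-06). Sesn1, which encodes an mTORC1 inhibitor that is also a p53 target, went from 7.96 and 7.75 to 9.05 and 9.46 (1.40 ± 0.16, adjusted p = 0.0016). The liver gluconeogenesis genes Pck1 and G6pc, named after their values were seen, stayed uncalled. Their 0 h means were dim, at 4.95 and 4.46, against a median of 5.64 over all genes.

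Other genes among the 20 largest rises belonged to none of these lists. Tcim, a small regulator also called TC1, went from 6.18 and 6.32 to 8.48 and 8.73 (2.35 ± 0.12). Plin4, a lipid droplet coat gene, went from 5.51 and 6.24 to 8.17 and 8.19 (2.31 ± 0.20), with its untreated arrays further apart than its treated ones. Rhob, a small GTPase gene, went from 7.71 and 7.31 to 9.34 and 9.25 (1.78 ± 0.17). The adjusted p-values of these 3 were 4.59e-06, 0.000182 and 0.000335. A further 3 rose from low signals. Npy4r, a pancreatic polypeptide receptor gene, went from 3.66 and 3.83 to 5.68 and 6.42 (2.30 ± 0.24, adjusted p = 0.000638). Sult1a1, a sulfotransferase gene, went from 3.86 and 4.45 to 6.24 and 6.47 (2.20 ± 0.19, adjusted p = 0.000164). Wfdc6a, a whey acidic protein domain gene, went from 2.67 and 3.10 to 4.88 and 4.91 (2.02 ± 0.20, adjusted p = 0.000502).

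**Figure D2:**
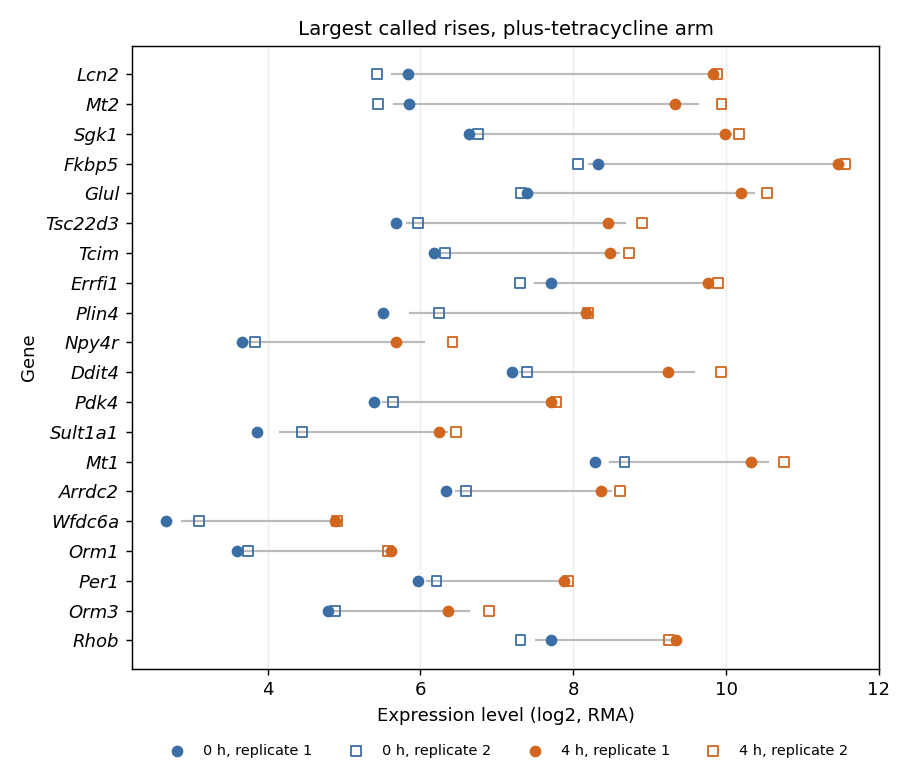
Levels of the 20 genes with the largest called rises (log2, x axis) on each of the arm's 4 arrays, with 0 h in blue and 4 h in orange. Filled circles are replicate 1, open squares replicate 2, and grey lines join the group means. The groups are apart in every gene, which the choice of genes required, and differences run from 4.22 for Lcn2 to 1.78 for Rhob.

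Promoters of the responding genes were searched for the receptor's palindrome in the 250 bases before each RefSeq start (mouse build GRCm38.p6, both strands). The palindrome was spelled as GNACA, any 3 bases, then TGTNC. Among 15614 tested genes with a window in the table, 65 (0.416%) held it, as did 0.387% of all 32851 windows of this length. Of 135 called rises with a window, 8 (5.93%) held it. Of 39 called falls with a window, 0 held it. Genes with several starts have more windows, 1.47 per called rise and 1.23 per gene overall. These are the whole windows of the pair of hormone-induced list members with the largest rises and a match, Sgk1 at chr10:21993640-21993889 on the + strand and Mt1 at chr8:94178839-94179088 on the + strand, with the palindrome in capitals.
Sgk1: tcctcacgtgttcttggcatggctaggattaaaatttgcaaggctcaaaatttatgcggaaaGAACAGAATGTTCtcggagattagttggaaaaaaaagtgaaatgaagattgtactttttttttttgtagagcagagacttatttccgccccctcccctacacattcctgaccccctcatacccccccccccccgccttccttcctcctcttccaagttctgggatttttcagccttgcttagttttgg
Mt1: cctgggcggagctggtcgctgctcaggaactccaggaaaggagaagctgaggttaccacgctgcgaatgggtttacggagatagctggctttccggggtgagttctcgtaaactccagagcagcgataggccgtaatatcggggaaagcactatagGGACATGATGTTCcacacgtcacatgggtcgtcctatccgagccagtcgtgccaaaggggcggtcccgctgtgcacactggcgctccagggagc
The Sgk1 match lies 188 to 176 bases before the start, in 1 of that gene's 6 windows, and the Mt1 match 94 to 82 bases before. Both matches end in the sequence TGTTC, the better conserved side of the element.

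The other 6 called rises with a palindrome were picked after their values were seen. Their stretches are shown with up to 25 bases on each side so that the spacers and flanks can be compared, palindrome in capitals.
Suox: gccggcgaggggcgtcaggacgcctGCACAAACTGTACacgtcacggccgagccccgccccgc
Amy1: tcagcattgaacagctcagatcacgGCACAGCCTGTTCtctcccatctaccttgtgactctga
Fam107a: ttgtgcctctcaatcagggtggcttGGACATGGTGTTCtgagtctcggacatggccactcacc
Map3k6: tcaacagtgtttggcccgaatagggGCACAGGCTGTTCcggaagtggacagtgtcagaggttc
Slc10a6: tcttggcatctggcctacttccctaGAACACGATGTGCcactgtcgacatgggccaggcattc
Fyb2: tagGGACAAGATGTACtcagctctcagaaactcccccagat
The stretches of Suox (chr10:128673927-128673989), Amy1 (chr3:113577929-113577991), Fam107a (chr14:8309860-8309922) and Slc10a6 (chr5:103629529-103629591) lie on the - strand. Those of Map3k6 (chr4:133240612-133240674) and Fyb2 (chr4:104913311-104913351) lie on the + strand. Suox, which encodes sulfite oxidase, rose by 1.53 ± 0.11 (adjusted p = 5.18e-05), and Map3k6, a MAP kinase kinase kinase gene, by 1.05 ± 0.11 (0.000626). Amy1 rose by 1.30, Fam107a by 1.08, Slc10a6 by 1.05 and Fyb2 by 0.60, and each of these 4 calls was lost without replicate 1 at 0 h (adjusted p = 0.135, 0.0602, 0.135 and 0.163), replicate 2 at 0 h (0.136, 0.0724, 0.0883 and 0.0608) or replicate 2 at 4 h (0.097, 0.0741, 0.138 and 0.198). The Fyb2 call was also lost without replicate 1 at 4 h (0.146). Amy1 belongs to a family of near-identical amylase genes that its probes may share. The other 57 of the 65 genes were not called. The 65 had a median change of 0.06, 38 were above 0, and 36 started below a level of 5. Over all genes the median was -0.01, 51.6% were below 0 and 39.0% started below 5. A match is a description of these letters, not evidence of binding.

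The half-site TGTTCT, which can overlap a palindrome, was in the windows of 15.4% of all genes, 13.3% of called rises and 2.56% of called falls (1 gene). The AP-1 site TGANTCA was in 7.12% of all genes, 7.41% of called rises and 12.8% of called falls (5 genes). A looser NF-kB type site, GGG, any 4 bases, then TCC, was in 21.1%, 28.1% and 17.9%. Only the 39 called falls with a window could be searched, and larger falls such as Plau and Thbs1 had no window. The AP-1 windows shown are those of the 2 largest named falls found to hold the site, with TGANTCA in capitals. They are Gpr39 at chr1:125676746-125676995 and Plaur at chr7:24462233-24462482, both on the + strand.
Gpr39: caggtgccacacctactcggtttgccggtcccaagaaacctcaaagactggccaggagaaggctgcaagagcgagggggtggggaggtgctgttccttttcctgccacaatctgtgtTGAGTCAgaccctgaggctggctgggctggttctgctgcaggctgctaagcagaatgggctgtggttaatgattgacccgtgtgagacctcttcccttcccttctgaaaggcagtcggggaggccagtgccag
Plaur: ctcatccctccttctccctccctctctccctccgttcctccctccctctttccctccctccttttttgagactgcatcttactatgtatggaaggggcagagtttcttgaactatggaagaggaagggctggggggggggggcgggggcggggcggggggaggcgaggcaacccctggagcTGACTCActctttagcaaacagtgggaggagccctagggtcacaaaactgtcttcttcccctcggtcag
The site lies 133 to 127 bases before the start of Gpr39 and 69 to 63 bases before that of Plaur. The other 3 called falls with a site were St6gal1, Fam107b and Ptpre, named after their values were seen.

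Of 20 genes of matrix proteases and their inhibitors, 3 fell and none rose, where 0.281% of all genes were called lower. Plau encodes the urokinase plasminogen activator. It went from 7.64 and 7.34 to 5.99 and 5.85, 2.98-fold lower (-1.57 ± 0.13, adjusted p = 0.000164). Plaur, its receptor, went from 7.14 and 6.91 to 6.29 and 6.10 (-0.82 ± 0.13, adjusted p = 0.0145), a call lost without replicate 1 at 0 h (0.137) or replicate 2 at 4 h (0.158). Adamts1, a secreted metalloprotease gene, went from 10.59 and 10.33 to 9.07 and 8.90 (-1.47 ± 0.12, adjusted p = 0.000157). The list's median was -0.04. The matrix metalloproteases on the list were not called. Their 0 h means ran from 3.78 (Mmp3) to 9.57 (Mmp14), so some were dim before hormone. Their changes ran from -0.38 for Mmp14 (adjusted p = 0.182) to 0.35 for Mmp19 (0.376), genes named after their values were seen. Plau and Plaur were also the only called members of 18 AP-1 target genes, of which 15 were below 0 and the median was -0.14. Over all genes 51.6% were below 0.

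Matrix genes moved both ways, with 5 higher and 2 lower of 27 and a median of -0.01. Of all genes tested, 0.823% were called higher and 0.281% lower. Thbs1, which encodes thrombospondin 1, went from 11.81 and 11.65 to 10.42 and 9.92 (-1.56 ± 0.15, adjusted p = 0.000453). Ccn4, a secreted Wnt target, went from 8.73 and 8.63 to 7.90 and 7.74 (-0.86 ± 0.13, adjusted p = 0.00686), a call lost without replicate 1 at 0 h (0.0763) or replicate 2 at 4 h (0.0944). In the other direction, Ccn2 (connective tissue growth factor) went from 7.13 and 7.10 to 8.38 and 8.41 (1.28 ± 0.11, adjusted p = 0.000164). Lox, which crosslinks collagen and elastin, went from 7.67 and 7.61 to 8.95 and 8.86 (1.27 ± 0.10, adjusted p = 0.000147). Postn, encoding periostin, went from 4.30 and 4.53 to 5.46 and 5.66 (1.15 ± 0.13, adjusted p = 0.000988). The basement membrane collagens Col4a1 (0.62 ± 0.12, adjusted p = 0.0388) and Col4a2 (0.55 ± 0.11, 0.0409) also rose, but leaving out any of the arm's arrays ended both calls (0.143 to 0.207 and 0.13 to 0.268). Ccn2 was the only called member of 14 YAP-TEAD target genes, whose median was 0.00.

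Inflammatory mediators are the classical targets of glucocorticoid repression. Of 26, 2 fell and none rose, where 0.281% of all genes were called lower. In the list 19 genes were below 0, against 51.6% of all genes, and the median was -0.10. In 12 of the 26 both treated arrays lay below both untreated arrays, where 19.3% of all genes did. At an unadjusted p under 0.05 by limma, in either direction, there were 9, against 9.98% of all genes. Ccl2, a monocyte chemokine, went from 6.14 and 5.81 to 5.01 and 5.15 (-0.90 ± 0.15, adjusted p = 0.015). Irf1, an interferon-induced transcription factor, went from 7.47 and 7.24 to 6.52 and 6.56 (-0.82 ± 0.12, adjusted p = 0.00568). Neither call held over the left-out arrays: without replicate 1 at 0 h, replicate 1 at 4 h or replicate 2 at 4 h the adjusted p was 0.143, 0.114 and 0.0843 for Ccl2 and 0.0517, 0.0531 and 0.0583 for Irf1. The median 0 h signal of the list was 5.22, against 5.64 over all genes, so part of it was dim before hormone was added.

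Among 15 AP-1 subunits 1 was called higher and 1 lower, with a median of -0.02. Shares over all genes were 0.823% higher and 0.281% lower. Jun went from 8.77 and 8.58 to 8.09 and 7.86 (-0.70 ± 0.12, adjusted p = 0.0188), a call lost without replicate 1 at 0 h (0.144) or replicate 2 at 4 h (0.201). Fos went from 5.19 and 5.50 to 6.15 and 6.0 (0.73 ± 0.13, adjusted p = 0.0236), a call lost without replicate 1 at 0 h (0.153) or either replicate at 4 h (0.163 and 0.101). With only the arm's 4 arrays neither Jun (adjusted p = 0.0594) nor Fos (0.0611) was called. A-fos carries a Fos leucine zipper, and whether the Fos probes read the transgene was not tested. Fosl1 (-0.20), Fosl2 (-0.02), Junb (-0.10) and Jund (0.20) were not called, with adjusted p-values of 0.615 to 0.977, and the value for Fosl2 turned to 0.03 under cyclic loess and to 0.05 without replicate 2 at 0 h.

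Genes of the MAP kinase response fell at single members, where 0.281% of all genes were called lower. Phlda1, a growth factor-induced gene, went from 7.33 and 7.16 to 6.22 and 5.91 (-1.18 ± 0.13, adjusted p = 0.000988) and was called with Errfi1 among 15 MAP kinase feedback genes, whose median of -0.23 was the lowest of all 37 lists. In that list 10 genes had both treated arrays below both untreated arrays, where 19.3% of all genes did. Srf, the serum response factor, fell by 0.60 (adjusted p = 0.0405) and Plk2, a stress-induced kinase gene, by 0.73 (0.0282) among 19 immediate-early genes. With only the arm's 4 arrays neither was called (adjusted p = 0.0915 for Srf and 0.0728 for Plk2). Srf was also not called with cyclic loess (0.0564). Both calls were lost without replicate 1 at 0 h (0.153 and 0.144) or either replicate at 4 h (0.102 and 0.332 for Srf, 0.14 and 0.194 for Plk2), and the Srf call also without replicate 2 at 0 h (0.15). Of 18 growth factors and EGF receptor family genes none was called by limma, and 5 had an unadjusted p under 0.05, against 9.98% of all genes. Ereg, encoding epiregulin, was at -0.73 ± 0.17 (adjusted p = 0.0837) and Nrg1, encoding neuregulin, at -0.56 ± 0.12 (0.0675). Both were called with a trended, robust variance (0.0312 and 0.0279) and after dropping the dimmest genes (0.0378 and 0.0275).

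Other genes among the 20 largest falls had varied roles. Pcdh18, a protocadherin gene, went from 8.01 and 7.89 to 6.55 and 6.40 (-1.48 ± 0.12, adjusted p = 0.000147). Fhl2, a LIM-domain cofactor gene of muscle and stress fibres, went from 7.85 and 7.62 to 6.71 and 6.32 (-1.22 ± 0.15, adjusted p = 0.0017). It was the only called member of 17 smooth-muscle actin cytoskeleton genes, 15 of which were below 0, against 51.6% of all genes. In 6 of the 17 both treated arrays lay below both untreated arrays, where 19.3% of all genes did. Hes1, the Notch-pathway repressor, went from 6.79 and 6.34 to 5.42 and 5.37 (-1.17 ± 0.15, adjusted p = 0.00282). Gpr39, a zinc-sensing receptor gene, went from 5.99 and 5.87 to 4.90 and 4.60 (-1.18 ± 0.15, adjusted p = 0.00282), a call lost without replicate 1 at 0 h (0.0517). Hs6st1, a heparan sulfate sulfotransferase gene, and Inhbb, which encodes the inhibin beta B subunit, fell by 0.95 and 0.85 (0.00282 and 0.00252).

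Each of the other 7 calls among the 20 largest falls was lost on leaving out at least 1 of the arm's arrays. Gper1, a membrane estrogen receptor gene, was at -0.87, Epha2, an ephrin receptor gene, at -0.84, Scx, the tendon factor scleraxis, at -0.89, Nrn1 (neuritin) at -0.90, Klhl30 at -0.86, Sh2d4a at -0.83 and Cdc42ep1 at -0.82. Without replicate 2 at 4 h the adjusted p was 0.119 for Gper1, 0.268 for Epha2, 0.0899 for Scx, 0.0624 for Nrn1, 0.222 for Sh2d4a and 0.0599 for Cdc42ep1. Without replicate 1 at 0 h it was 0.0784 for Gper1, 0.205 for Epha2, 0.0773 for Scx, 0.0644 for Klhl30 and 0.173 for Sh2d4a. Without replicate 2 at 0 h the Gper1 (0.0836) and Epha2 (0.0651) calls were lost, and without replicate 1 at 4 h those of Scx (0.0771) and Klhl30 (0.0662). Pdgfrb, the PDGF receptor gene on the mesenchymal list, fell by 0.75 (adjusted p = 0.0191), a call lost without either replicate at 0 h (0.0907 and 0.118) or replicate 2 at 4 h (0.201).

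**Figure D3:**
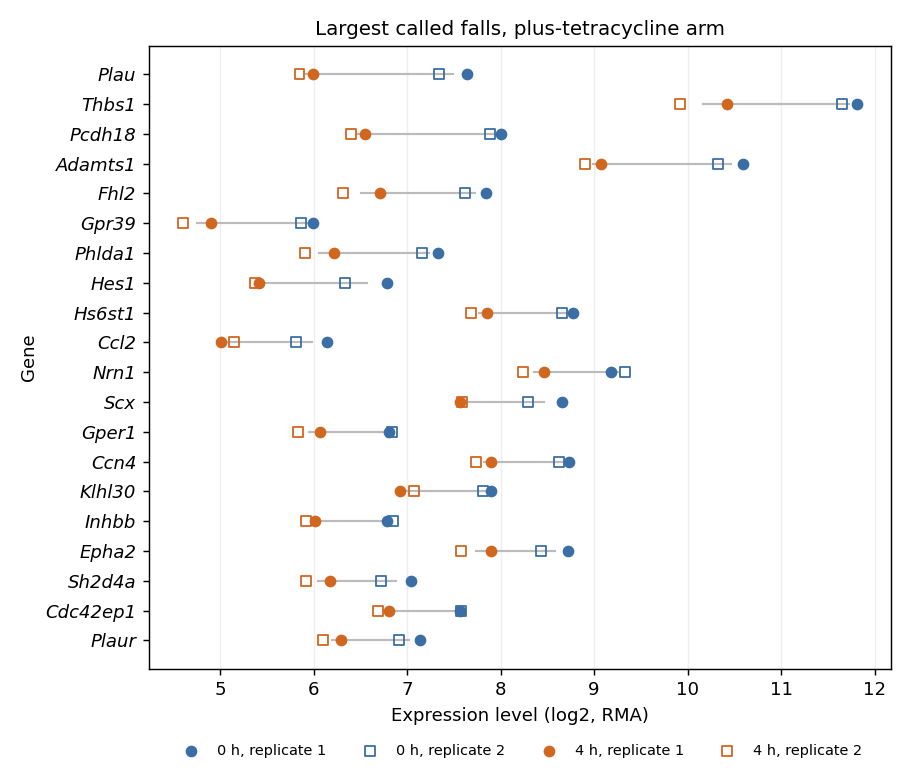
Levels of the 20 genes with the largest called falls (log2, x axis) on each of the arm's 4 arrays, with 0 h in blue and 4 h in orange. Filled circles are replicate 1, open squares replicate 2, and grey lines join the group means. Every treated array is below every untreated array, which the choice of genes required. Differences run from -1.57 for Plau to -0.82.

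Cell cycle and stress lists gave few calls at 4 h. Over all genes 1.1% were called in either direction, a share at which lists of 14 to 21 genes would often hold none. None of 21 G1/S genes, 21 G2/M genes, 17 TGF-beta and BMP targets, 17 ER chaperones, 15 cholesterol synthesis genes, 16 interferon-stimulated genes, 17 glycolysis and hypoxia genes or 14 NRF2 genes was called by limma. At an unadjusted p under 0.05 there were 5, 1, 1, 1, 4, 4, 9 and 1 of them, in that order, against 9.98% of all genes. Medians were -0.16 for G1/S, where 16 were below 0, and -0.08 for G2/M, where 18 were, against 51.6% of all genes. The G1/S members averaged 8.47 and 8.28 at 0 h and 8.33 and 8.12 at 4 h. The G2/M members averaged 8.71 and 8.38 at 0 h and 8.54 and 8.40 at 4 h. In both lists the groups overlapped, and only the untreated replicate 1 lay above both treated arrays. The smallest p-values of these 2 lists belonged to Mcm3, a replication helicase subunit gene (-0.46 ± 0.14, adjusted p = 0.223), and Cdt1, a licensing factor gene (-0.31 ± 0.10, 0.281), for G1/S. For G2/M they belonged to Nusap1 (0.32, adjusted p = 0.43) and Mad2l1 (-0.24, 0.576), both spindle genes. Of 16 CDK inhibitor and growth arrest genes, Gadd45g (0.89 ± 0.11, adjusted p = 0.00193) and Ccng2, an unusual cyclin gene (0.79 ± 0.12, 0.0119), rose. The Ccng2 call was lost without replicate 1 (0.108) or 2 (0.0607) at 0 h or replicate 2 at 4 h (0.139).

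Of the 15 cholesterol synthesis genes, 14 were below 0, against 51.6% of all genes. The list's median was -0.20, against -0.01 over all genes. Insig1, which encodes a sterol-dependent brake on SREBP, varied between replicates, at 10.46 and 11.08 before and 9.60 and 10.17 after hormone (-0.89 ± 0.25, adjusted p = 0.189). Replicate 2 was the higher array in both groups, and a limma fit with the replicate number as a block called the fall (adjusted p = 0.00711). Dhcr7, the last enzyme of the pathway, was at -0.47 (0.259). Among 18 integrated stress response genes Trib3, a pseudokinase gene, fell by 0.65 (adjusted p = 0.0443), which leaving out any of the arm's arrays ended (0.096 to 0.352). Trib3 was also not called with only the arm's 4 arrays (adjusted p = 0.0778). Among 15 p53 target genes, Sesn1 rose and Plk2 fell. Bnip3, a mitophagy receptor gene of the hypoxia list, was at 7.95 and 7.95 before and 8.41 and 8.88 after hormone (0.70 ± 0.15, adjusted p = 0.0536), a change that was called without replicate 1 at 4 h (0.93, adjusted p = 0.0126). It was also called with a trended, robust variance (0.00859), after dropping the dimmest genes (0.0221) and with cyclic loess (0.0423). Hk2, a hexokinase gene of that list, was at 0.48 ± 0.10 (adjusted p = 0.0596) and was called under the same 3 settings (0.012, 0.022 and 0.0312).

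**Figure D4:**
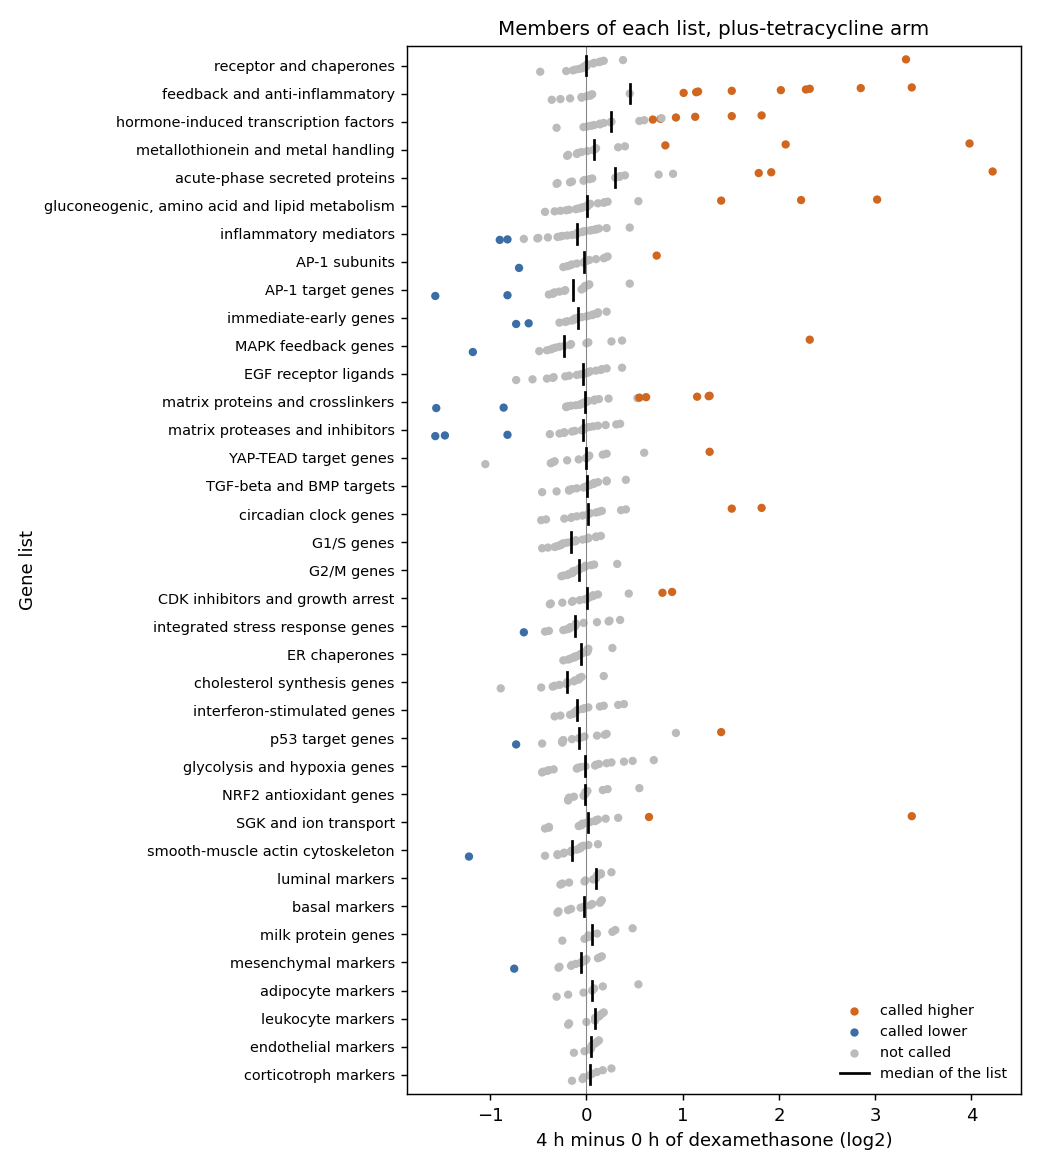
Change of each measured member (points, log2, 4 h minus 0 h) of the 37 gene lists, with genes called higher in orange, called lower in blue, uncalled genes in grey and the list's median as a black bar. The feedback list has the highest median (0.45) with 9 orange points, and most lists sit around 0. The row titled EGF receptor ligands also holds other growth factors and the receptors.

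The same hormone treatment in the no-tetracycline arm gave 205 genes higher and 80 lower. Of the rises, 105 were called in both arms, 64.0% of those in the plus-tetracycline arm and 51.2% of those in the other. Of the falls, 22 were called in both, 39.3% and 27.5%. No gene was called in opposite directions. Being called in a single arm is not a difference: 59 rises and 34 falls were called only here. Of these genes, which the calls themselves picked, 44 had an unadjusted p under 0.05 in limma's test of the difference of responses. Of all 19938 genes 1018 did, near the number expected if no response differed. After adjustment that test called 1 of all genes (0.00502%).

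That gene was Suox. It went from 6.0 and 6.06 to 7.51 and 7.60 in this arm and from 5.83 and 5.80 to 8.95 and 9.10 in the other. The response was smaller here by 1.69 on the log2 scale (95% interval -2.03 to -1.35, adjusted p = 0.00779). The call was lost on leaving out 6 of the 8 arrays in turn (adjusted p = 0.0526 to 0.0843) and held without replicate 1 of the treated no-tetracycline cells (0.0319) or replicate 2 of the treated plus-tetracycline cells (0.0252), while the difference stayed between -1.77 and -1.61. Sulfotransferase Sult1a1 rose by 2.20 here and was at 0.18 in the other arm, a difference of 2.02 (1.43 to 2.60, adjusted p = 0.126). Orm3 rose by 1.79 here and by 3.26 in the other arm (-1.46, adjusted p = 0.129), and Sgk1 by 3.38 and 2.27 (1.11, 0.129), from 0 h means of 6.69 here and 7.71 there to 10.07 and 9.98. Fhl2 fell by 1.22 here and was at 0.15 there (-1.37, 0.129), its untreated mean being 7.73 here and 6.83 there. None of these 4 differences was called by limma. All were called with a trended, robust variance (adjusted p = 0.0156 to 0.0216) and after dropping the dimmest genes (0.0444 to 0.0477), and that of Sult1a1 also after median centring (0.0288). Without replicate 2 of the treated plus-tetracycline cells the Orm3 difference was -1.73 and was called (0.0252).

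For several of the largest rises called in both arms, the difference of responses is given with its 95% interval. It was 0.09 (-0.61 to 0.78) for Mt2, 0.27 (-0.10 to 0.64) for Fkbp5, 0.21 (-0.35 to 0.76) for Tsc22d3, -0.08 (-0.49 to 0.33) for Per1 and -0.11 (-0.47 to 0.26) for Pdk4. For Lcn2 it was 0.82 (0.35 to 1.30) and for Glul 0.54 (0.12 to 0.95), intervals above 0, with adjusted p-values of 0.633 and 0.878 over all genes. Among the falls it was 0.13 (-0.28 to 0.54) for Plau, -0.22 (-0.70 to 0.26) for Thbs1 and -0.85 (-1.23 to -0.47, adjusted p = 0.363) for Adamts1. Adamts1 started at 10.46 here and 9.54 in the other arm and ended at 8.99 and 8.92.

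**Figure D5:**
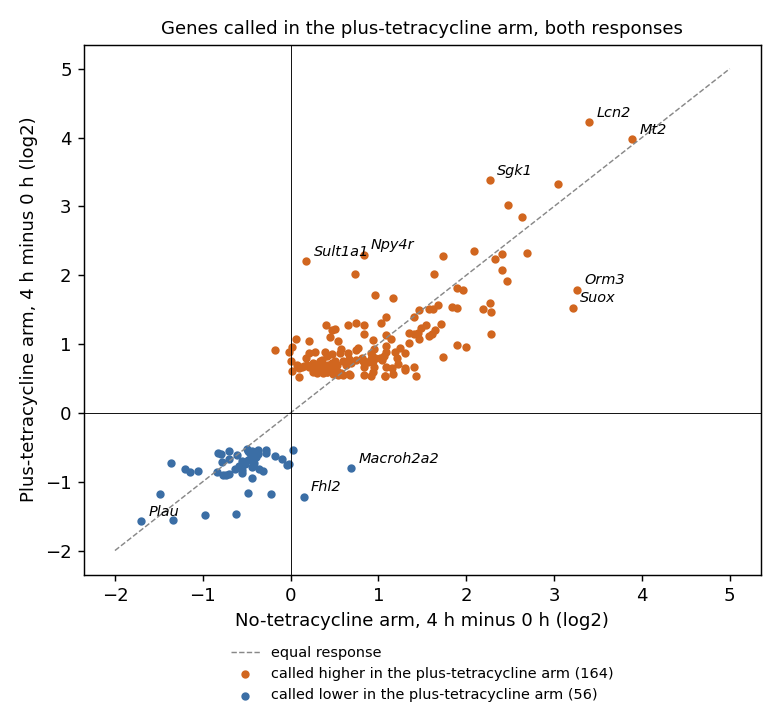
Each point is 1 of the 220 genes called in the plus-tetracycline arm, with its change in that arm on the y axis and in the no-tetracycline arm on the x axis (log2, 4 h minus 0 h), and the dashed line marks equal responses. Rises are orange and falls blue. Suox lies below the line (1.53 against 3.21) and Sult1a1 above it (2.20 against 0.18).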

How the data were processed

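RNA of 8 samples was measured on Affymetrix arrays of 28888 probe sets, 2 per group. The deposited values are on a log2 scale, made by the authors with RMA in Affymetrix Expression Console, per the submitters' processing notes, which give no versions. RMA corrects background, brings the arrays to like distributions and summarizes each probe set, so a shift shared by most genes cannot be seen. The number of arrays limits the precision.

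Gene symbols came from the platform annotation, updated by gene number in a RefSeq table (21698 of 21789 with 1 symbol; 1621 had several and 5478 none here). Each gene was represented by its brightest probe set on average over the 8 arrays, leaving 19938 genes, 999 of them with several probe sets. No signal filter was applied.

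A single model with 4 group means was fitted to all 8 arrays (lmFit and eBayes of limma 3.58.1, R 4.3.3). Tests were 2-sided, Benjamini-Hochberg adjusted over all genes and called at an adjusted p under 0.05. All 4 groups shared 1 estimate of the spread (4 residual and 6.64 prior degrees of freedom). The procedure was tested on simulated data of 19938 genes with the spread that the model assumed. It called 35.8% of 1.5-fold changes, 95.5% of 2-fold and 100% of 4-fold changes, with 11 false calls. Changes near 1.5-fold were therefore often missed. Intervals are 95% intervals from this model.

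Named genes were the 20 called rises and 20 called falls of largest size whose groups do not overlap, the 5 most changed called members of each list (or, in a list without calls, the 2 members of smallest p), and Nr3c1, Fos, Fosl1, Fosl2, Jun, Junb and Jund. Genes outside this rule were named after their values were seen. The arm, its 37 gene lists and the motifs were chosen with earlier results of these data known. No set test was run. Promoter windows are RefSeq's (GRCm38.p6), matched by symbol for 15614 genes.

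Over all genes, same-numbered replicates did not deviate together (correlations from -0.019 to 0.133), and the labels state no pairing, so the samples were not treated as paired. A correlation over all genes cannot exclude a shared shift in some of them. Alternatives were other variance models, scalings (median centring, cyclic loess), probe set rules and minimum changes, a replicate block, a filter dropping the dimmest 1 in 3 genes, the arm's 4 arrays alone, and each array left out.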

Additional observations from a re-analysis of the deposited data

Results flagged for a closer look

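Suox, the gene of sulfite oxidase, drew attention because the test of the difference of responses called it, the only gene of 19938 so called. It rose by 1.53 on the log2 scale in the plus-tetracycline arm and by 3.21 in the no-tetracycline arm, a difference of -1.69 ± 0.15 (SE, adjusted p = 0.00779 by limma). Means at 0 h were 6.03 and 5.81, and means at 4 h were 7.55 and 9.03, with every treated array above every untreated one in both arms. Its call held under the 8 other variance, scaling, probe set and minimum change settings that gave a value (adjusted p from 0.000443 to 0.0297) but not on leaving out each array, as given above. The cause of the difference was not tested.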

How the results depend on the processing

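The 164 rises and 56 falls became 249 and 121 with a trended, robust variance, 70 and 12 when tested against a minimum of 1.2-fold with treat, and 61 and 8 when a 2-fold change was also asked for. Falls numbered 31 with only the arm's 4 arrays and 103 after dropping the dimmest genes. Over the fits that each left out 1 of the 8 arrays, rises numbered 68 to 146 and falls 12 to 41. The causes were not tested.

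The difference of responses had 0 genes higher and 1 lower by limma, and 1018 of 19938 at an unadjusted p under 0.05. This comparison gave 4 higher and 7 lower with a trended, robust variance, 3 and 4 after dropping the dimmest genes, and 1 higher after median centring. It gave 0 higher and 0 to 2 lower without each array. With only the arm's 4 arrays it could not be fitted.

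With the replicate number as a block, 169 genes were higher and 53 lower, and the difference of responses called 0 and 1. The block is a check only, since the labels state no pairing and same-numbered arrays did not deviate together over all genes. That does not exclude a shared shift in some genes. With the block Insig1 was called (adjusted p = 0.00711) and Trib3 was not (0.0668). No other named call changed.

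Of 59 called named genes, 37 kept direction and call under every setting run and 22 lost the call without at least 1 of the arm's arrays. Fosl2, at -0.02 and never called, turned to 0.03 under cyclic loess and ranged from -0.09 to 0.05 over the fits without each array, with 0.05 without replicate 2 of the untreated plus-tetracycline cells. Irf1 was not called when its probe sets were averaged (-0.51, adjusted p = 0.0969). With 2 arrays a group, small changes and dim genes were the least certain.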

Other observations

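Further genes outside the lists changed in the plus-tetracycline arm and were picked after their values were seen. Those given first were called on leaving out each of the arm's arrays. Bcl2l1, which encodes the survival protein Bcl-xL, went from 7.49 and 7.68 to 9.19 and 9.16 (1.59 ± 0.11, SE, adjusted p = 5.4e-05 by limma). Vdr, the vitamin D receptor gene, went from 7.38 and 7.55 to 8.91 and 9.01 (1.49 ± 0.11, adjusted p = 6.71e-05). Tgm2, which encodes a transglutaminase that crosslinks matrix, went from 7.92 and 8.10 to 9.54 and 9.52 (1.52 ± 0.11, adjusted p = 5.18e-05). Ampd3, an AMP deaminase gene, rose by 1.46 and Klhl24, a ubiquitin ligase adaptor gene, by 1.67. The small GTPase gene Rhou rose by 1.40 with its relative Rhob (1.78). Vegfd, a lymphatic growth factor gene, rose by 1.14 and Ccbe1, which supports processing of such factors, by 1.07. Aldh1a1 and Aldh1a7, retinaldehyde dehydrogenase genes close enough to share probes, rose by 0.99 and 1.29.

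The next 3 genes, which encode cell-surface receptors, were called lower and lost those calls on leaving out arrays. Tgfbr2 (a TGF-beta receptor gene) was at -0.66 and Fzd2 (a Wnt receptor gene) at -0.54, and leaving out any of the arm's arrays ended both calls (adjusted p = 0.0597 to 0.158 and 0.0739 to 0.212). Tnfrsf12a, the TWEAK receptor gene, was at -0.77, a call lost without replicate 2 at 0 h (0.0944) or either replicate at 4 h (0.0517 and 0.154).

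Signs mostly matched between the arms among the 220 called genes: 2 of the rises were below 0 and 3 of the falls above 0 in the no-tetracycline arm. Macroh2a2, a histone variant gene, was 1 of those falls, at 4.40 and 4.62 before and 3.86 and 3.57 after hormone (-0.80, adjusted p = 0.0435) and at 0.69 in the other arm. The difference was not called (adjusted p = 0.129), and leaving out any of the arm's arrays ended the call in the plus-tetracycline arm (0.0767 to 0.352).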
